A study of Homo sapiens with 16 samples.

Results

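Input DNA was compared between proliferating and quiescent cells in 8 of the 16 libraries of the series, the 4 inputs of cells kept in 10% serum and the 4 inputs of cells kept in 0.1% serum. The members were taken from the sample labels, and the other 8 libraries, made with an antibody, were not used. All cells were BJ-5ta, human foreskin fibroblasts immortalized with telomerase (hTERT). The 4 groups, each with replicates A and B, were wild type in 10% serum, wild type in 0.1% serum for 10 days, ΔLEO1 in 10% serum and ΔLEO1 in 0.1% serum for 10 days. ΔLEO1 cells lack the start of the LEO1 gene, which encodes a subunit of the PAF1 complex, and came from 1 CRISPR/Cas9 clone, so that clone and genotype cannot be told apart. Input is chromatin that was fixed, sonicated and sequenced with no antibody, and fly chromatin had been added to all samples as a spike-in. It measures DNA and no expression, so the cell type was not checked against marker genes.

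In a growing culture some cells are in S phase, when gene-rich parts of the genome tend to be copied early and gene-poor parts late. DNA of such a culture therefore holds somewhat more gene-rich than gene-poor sequence than DNA of cells arrested before S phase. Sonication, amplification and sequencing also favour some base compositions over others, and gene-rich regions are rich in G and C. Mitochondrial DNA lies outside the nucleus in many copies per cell and is copied independently of S phase.

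Reads had been counted in windows of 2000 bp around transcription start sites (TSS). Of 237274 windows with distinct coordinates, 217509 lay on chromosomes 1 to 22 and X and 37 on the mitochondrial chromosome. The inputs held between 2844483 and 7947289 reads over distinct windows, where a read in overlapping windows was counted in each. ΔLEO1 10% serum replicate A was the shallowest library, and the other 7 held 4622207 or more. It stood apart from its replicate, with a chi-square per degree of freedom of 13.3 over 5 Mb bins, against 1.26 to 4.37 for the other replicate pairs. Bins, windows and genes picked from calls made without it are given with and without it. The labels do not say that replicates A and B were separate cultures, so p-values measure only the spread between these samples, which may be technical.

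The mitochondrial share of input reads did not separate the sera. In wild type it was 2.11% and 1.71% in 10% serum (replicates A and B) and 1.88% and 1.94% in 0.1% serum. In ΔLEO1 it was 3.41% and 2.04% in 10% serum and 2.39% and 1.83% in 0.1% serum. The 10% libraries lay both above and below the 0.1% libraries, and the highest share belonged to the shallowest library. The means were 2.32% ± 0.750 in 10% serum and 2.01% ± 0.255 in 0.1% serum (SD, n = 4), a log2 difference of 0.16 (two-sided exact permutation p = 0.629, smallest possible 0.0286). The sign turned without ΔLEO1 10% serum replicate A, with 1.95% ± 0.215 (SD, n = 3) in 10% serum and a log2 difference of -0.038 (exact permutation p = 0.800). These shares count a read in every window that holds it, and mitochondrial windows overlap heavily. Over windows that do not overlap the shares were 1.02%, 0.861%, 1.53% and 0.991% in 10% serum and 0.859%, 0.891%, 1.11% and 0.872% in 0.1% serum (wild type A and B, ΔLEO1 A and B), a log2 difference of 0.21 (exact permutation p = 0.343). The 95% Wilson interval of the shallowest library was then 1.51% to 1.56%, for counting error only.

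The mitochondrial share was lower in deeper libraries. Across the 8 inputs, Pearson's r between the log2 share and the log2 number of reads was -0.957 (exact permutation p = 0.00129, adjusted 0.00258) and Spearman's rho was -0.857 (exact permutation p = 0.0107, adjusted 0.0214). Without the shallowest and the deepest library r was -0.782. The number of reads is the denominator of the share. The libraries differed 2.79-fold in reads, but only 1.53-fold in mitochondrial reads, which ran from 97019 to 148861. All 37 mitochondrial windows had a positive log2 fold change with 8 inputs, between 0.18 and 0.26, and 0 were called. Their fold changes without ΔLEO1 10% serum replicate A lay between -0.032 and 0.016. These windows overlap, and only 7 of them could be placed side by side on the mitochondrial chromosome. MT-ND5, a subunit of respiratory complex I with the most reads among the 15 listed mitochondrial genes, had a log2 fold change of 0.20 ± 0.13 (SE) with 8 inputs and 0.023 ± 0.11 without that library.

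**Figure D1:**
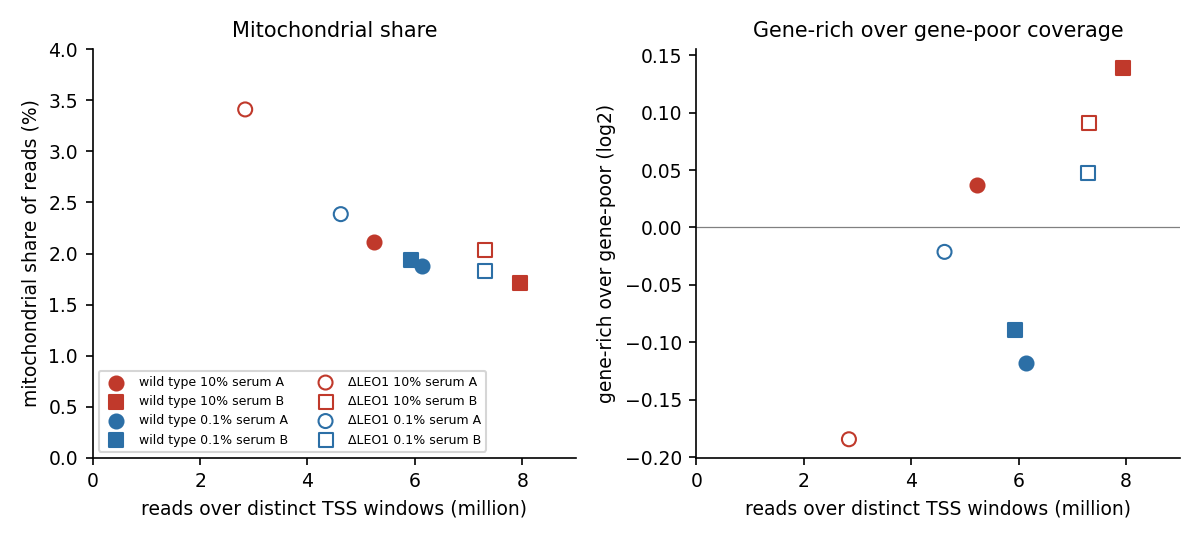
The left plot gives the mitochondrial share of input reads (percent) and the right plot the log2 ratio of coverage in gene-rich over gene-poor bins, both against the reads of each library, with 1 point per library. The share fell from 3.41% in the shallowest library to 1.71% in the deepest, while the lowest and the highest coverage ratios, -0.18 and 0.14, belonged to these same libraries.

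To look for a shift with gene density, windows were summed in bins of 5 Mb. The 594 bins with at least 20 distinct windows were ordered by the number of gene symbols they hold and divided into 5 classes, from class 1 with 7 to 35 symbols per bin to class 5 with 88 to 316. Gene-rich over gene-poor coverage is the log2 ratio of reads per window in class 5 over class 1. In wild type it was 0.037 and 0.14 in 10% serum and -0.12 and -0.089 in 0.1% serum, so that both libraries in 10% serum lay above both in 0.1% serum. In ΔLEO1 it was -0.18 and 0.091 in 10% serum and -0.021 and 0.048 in 0.1% serum, and the sera overlapped. The wild-type difference was 0.19, equal to the contrast of 0.088 ± 0.072 with -0.10 ± 0.021 (SD, n = 2), and its exact permutation p of 0.333 is the smallest that 2 against 2 samples allow. The ΔLEO1 difference was -0.060 (exact permutation p = 1.00).

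Over both genotypes the gene-rich shift in TSS windows was smaller than the spread between libraries. The means were 0.021 ± 0.14 in 10% serum and -0.045 ± 0.074 in 0.1% serum (SD, n = 4), a difference of 0.066 (two-sided exact permutation p = 0.457). Compared with the 0.1% library of the same genotype and letter, coverage was higher in 10% serum in 3 of 4 pairs, by 0.16 and 0.23 in wild type and by 0.044 in ΔLEO1 replicate B, and it was 0.16 lower in ΔLEO1 replicate A. Without ΔLEO1 10% serum replicate A the difference was 0.13 (exact permutation p = 0.0857). The slope of log2 coverage on log2 gene density behaved alike, with a difference of 0.021 over 8 inputs (exact permutation p = 0.514), 0.070 in wild type and -0.027 in ΔLEO1 (exact permutation p = 0.333 and 1.00). Input reads had also been counted in peak regions. There the gene-rich means were 0.026 ± 0.028 in 10% serum and -0.016 ± 0.035 in 0.1% serum (SD, n = 4). Their difference was 0.042 (exact permutation p = 0.114), and the sera overlapped. ΔLEO1 10% serum replicate A had -0.0097 in peak regions, above both wild-type 0.1% serum libraries, at -0.046. The slope difference in peak regions was 0.018 (exact permutation p = 0.343).

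**Figure D2:**
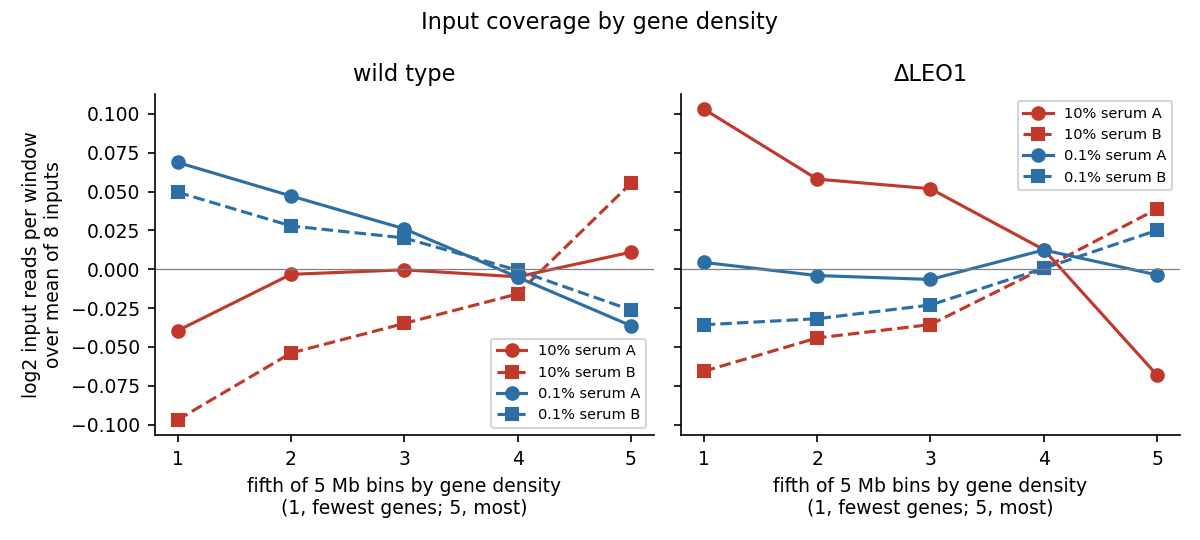
Input reads per window in each of the 5 gene density classes are plotted as the log2 ratio to the mean of the 8 inputs, with wild type on the left, ΔLEO1 on the right and 1 line per library. Wild-type 10% serum libraries rise from class 1 to class 5 and wild-type 0.1% serum libraries fall, while in ΔLEO1 the steepest fall is that of 10% serum replicate A.

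Base composition moved with the same libraries. The GC content of RefSeq promoters rose with gene density, from a mean of 50.8% in class 1 to 60.3% in class 5, and 565 of the 594 bins had a value. The slope of log2 coverage on promoter GC, per 10 percentage points, was 0.033 and 0.13 in wild type 10% serum and -0.083 and -0.059 in wild type 0.1% serum. In ΔLEO1 it was -0.12 and 0.070 in 10% serum and -0.0019 and 0.050 in 0.1% serum. The 8 libraries had the same order by this slope as by gene-rich over gene-poor coverage. After a correction of each library for promoter GC the serum difference in gene-rich over gene-poor coverage was 0.017 (exact permutation p = 0.486). Without ΔLEO1 10% serum replicate A the corrected difference was 0.037, with all 3 libraries in 10% serum above all 4 in 0.1% serum (exact permutation p = 0.0571, smallest possible 0.0286). For the slope on gene density, the serum difference with promoter GC in the fit was 0.0031 over 8 inputs (exact permutation p = 0.914). Without that library the slope difference was 0.015, and the sera overlapped (exact permutation p = 0.257). GC-corrected values without that library were not planned in advance. Gene density and GC content rise together over these bins, and what each contributed was not tested further.

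Depth moved with coverage too. Pearson's r between gene-rich over gene-poor coverage and the log2 number of reads was 0.762 (exact permutation p = 0.0209, the same after adjustment over the 2 relations examined), and Spearman's rho was 0.786 (exact permutation p = 0.0279). Without the shallowest and the deepest library r was 0.349, so the relation rested on those 2 libraries. The part of depth in the serum difference was not tested.

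Bin by bin, edgeR called no difference between the sera when all 8 inputs were used. Its quasi-likelihood test with genotype as a covariate called 0 of 594 bins (0%) at an adjusted p-value under 0.05, and 29 had an unadjusted p-value under 0.05. DESeq2 called 2 bins (0.337%), both lower in 10% serum. They lie on chromosome 8 from 125000001 to 130000000, where the long noncoding RNA gene PVT1 has the most windows, and on chromosome 1 from 245000001 to 250000000. In edgeR their log2 fold changes were -0.14 ± 0.030 and -0.11 ± 0.028 (SE; Benjamini-Hochberg adjusted p = 0.435 and 0.561). Without ΔLEO1 10% serum replicate A they were -0.14 and -0.099 (edgeR adjusted p = 0.0361 and 0.0537). In both bins all 4 libraries in 10% serum lay below all 4 in 0.1% serum, as in 12 of 594 bins (2.02%), while 2 bins (0.337%) had all 4 above. The median log2 fold change rose over the density classes, from -0.042 in class 1 through -0.0094, -0.0032 and 0.0062 to 0.022 in class 5. It was positive in 24 of 119 bins of class 1 and in 95 of 119 bins of class 5. Neighbouring bins share a library, so these counts are a description.

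The count of called bins depended on 1 library. Without ΔLEO1 10% serum replicate A, 17 of 594 bins were called (2.86%), 9 higher (1.52%) and 8 lower (1.35%) in 10% serum, and leaving out any other library called 0. Of the 9 higher bins 8 were in class 5, and of the 8 lower bins 6 were in class 1 and 2 in class 2. Promoter GC lay between 63.8% and 68.7% in the higher bins, and between 41.2% and 52.2% in the 6 lower bins that had a value, against a median of 55.7% over all bins. With the GC correction in the same 7-library fit 15 of 565 bins were called (2.65%), all higher. The 2 lower bins on chromosome 8 had no GC value and did not enter that fit. The corrected fit was off centre, with a median log2 fold change of 0.031 over its bins, against -0.0012 without the correction. How far this shift set the direction of the 15 calls was not tested. With 8 inputs the 17 bins had adjusted p-values between 0.435 and 0.909 (edgeR).

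The bins, windows and genes described next were picked after the 8-input fit had called none. They came from the 7-input calls whose 7 libraries did not overlap between the sera, by size of difference. Lack of overlap among these 7 libraries therefore follows from the choice. Among the higher bins, the largest difference was at the end of chromosome 14, from 105000001 to 110000000, which holds BRF1 (a subunit of an RNA polymerase III initiation factor), MTA1 (a subunit of a nucleosome remodelling and deacetylase complex) and PACS2. In CPM, which are counts scaled to the total reads of each library, wild type gave 706 and 801 in 10% serum against 534 and 537 in 0.1% serum, and ΔLEO1 gave 521 and 678 in 10% serum against 613 and 677 in 0.1% serum. Wild type was separated by serum, whereas the 521 CPM of ΔLEO1 10% serum replicate A was the lowest value of the 8. The log2 fold change was 0.33 ± 0.076 (SE, edgeR adjusted p = 0.0383) with 7 inputs and 0.20 ± 0.12 with 8. This bin also holds immunoglobulin heavy chain segments, whose near-identical copies can share reads.

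The next bins were likewise gene-rich. On chromosome 9 from 135000001 to 140000000, with EHMT1 (a histone H3 lysine 9 methyltransferase), KCNT1 (a potassium channel) and MAN1B1 (a mannosidase of the secretory pathway), wild type gave 3174 and 3592 CPM in 10% serum and 2672 and 2769 CPM in 0.1% serum, and ΔLEO1 gave 2440 and 3137 against 2861 and 3088 CPM. The log2 fold change was 0.22 ± 0.053 (SE) with 7 inputs and 0.11 ± 0.096 with 8. The bin on chromosome 17 from 80000001 to 85000000, with HGS (endosomal sorting), P4HB (protein disulfide isomerase) and TBCD (tubulin folding), had 0.21 ± 0.047 with 7 and 0.14 ± 0.077 with 8. The first bin of chromosome 16, with TSC2, PKD1 and NAA60, had 0.21 ± 0.047 and 0.12 ± 0.089, and the bin on chromosome 9 from 125000001 to 130000000, with LINC00963, SPTAN1 (spectrin) and CIZ1 (a factor in the start of DNA replication), had 0.18 ± 0.040 and 0.12 ± 0.064. In each of these 5 bins ΔLEO1 10% serum replicate A was the lowest of all 8 libraries except on chromosome 17, where the wild-type 0.1% serum replicate A was lower.

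The lower bins held few genes. On chromosome X from 85000001 to 90000000, with DACH2 (a transcription cofactor), CHM (a Rab escort protein) and SATL1, wild type gave 144 and 132 CPM in 10% serum and 170 and 161 CPM in 0.1% serum, and ΔLEO1 gave 161 and 136 against 154 and 167 CPM. The log2 fold change was -0.25 ± 0.056 (SE) with 7 inputs and -0.20 ± 0.075 with 8. In the adjoining bin, with PCDH11X (a protocadherin), FAM133A and NAP1L3, the 10% serum libraries ran from 64.2 to 72.0 CPM and the 0.1% serum libraries from 73.8 to 80.2 CPM. These groups did not overlap even with all 8 inputs, and the log2 fold change was -0.24 ± 0.062 with 7 inputs and -0.21 ± 0.071 with 8.

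Autosomal bins fell by less. The bin on chromosome 1 from 190000001 to 195000000 holds CDC73 (like LEO1, a subunit of the PAF1 complex), UCHL5 (a deubiquitinase) and RO60, and had a log2 fold change of -0.18 ± 0.043 (SE) with 7 inputs and -0.11 ± 0.067 with 8. The bin on chromosome 8 from 45000001 to 50000000, with LINC00293, MCM4 (a subunit of the replicative helicase) and SPIDR (a DNA repair scaffold), had -0.14 ± 0.034 and -0.098 ± 0.044. The bin on chromosome 12 from 125000001 to 130000000, where the most windows belong to the noncoding genes LINC00943, LINC02347 and LINC00507, had -0.14 ± 0.031 and -0.12 ± 0.033, with all 4 libraries in 10% serum, at 1303 to 1355 CPM, below all 4 in 0.1% serum, at 1372 to 1541 CPM.

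**Figure D3:**
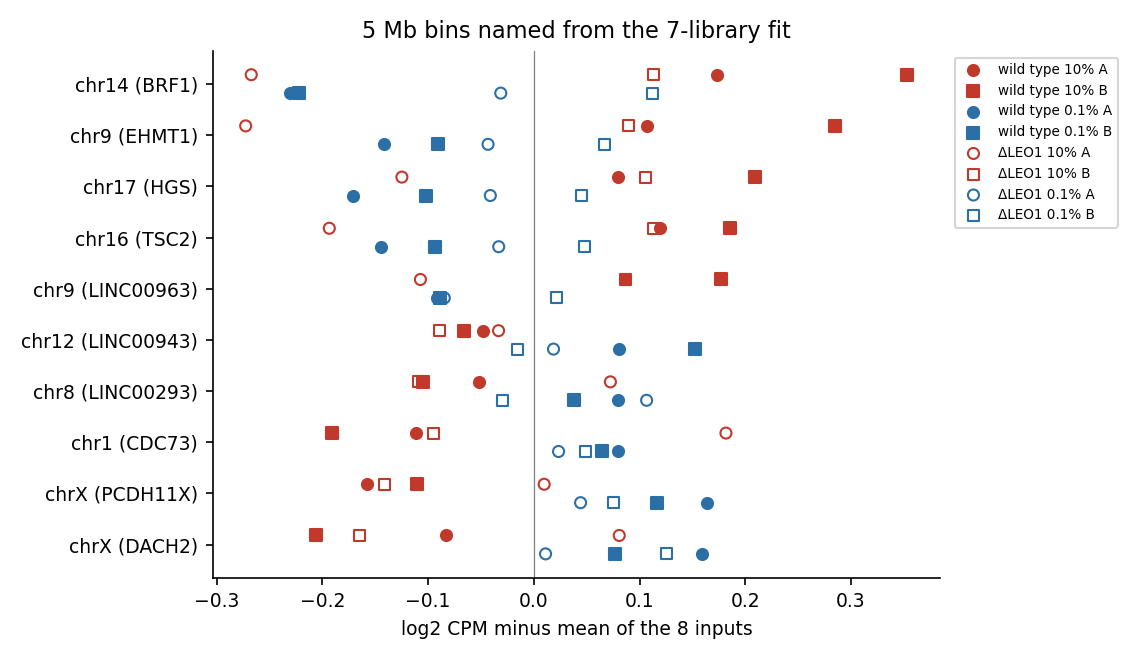
For each of the 10 bins described above, named by chromosome and leading gene, the log2 CPM of each library is plotted as its difference from the mean of the 8 inputs, with 10% serum in red above 0.1% serum in blue and ΔLEO1 as open symbols. The open red circle, ΔLEO1 10% serum replicate A, lies on the side of the 0.1% serum libraries in the 5 bins at the top.

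The genotypes fitted alone gave unlike counts. In wild type 97 bins were called (16.3%), 46 higher (7.74%) and 51 lower (8.59%) in 10% serum, with class medians from -0.10 in class 1 to 0.083 in class 5. Of the higher bins 24 were in class 5, and of the lower bins 28 were in class 1. The wild-type 0.1% serum replicates lay close to counting noise (chi-square per degree of freedom 1.26 over bins), and each of these fits had 2 samples a side. In ΔLEO1 1 bin was called (0.168%), higher in 10% serum and on chromosome 4, and the class medians ran from 0.010 in class 1 to -0.040 in class 5.

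Whether the genotypes differed in their response to serum was tested directly with an interaction term. With 8 inputs 0 of 594 bins (0%) were called, and 84 had an unadjusted p-value under 0.05 (edgeR). With the replicate letter as a block 55 bins were called (9.26%), 25 with a log2 difference that was higher in ΔLEO1 and 30 with a lower one (5.05%). The higher calls numbered 10, 7, 6, 2 and 0 from class 1 to class 5 and the lower calls 0, 4, 6, 6 and 14. Without ΔLEO1 10% serum replicate B, which leaves replicate A as the only library of its group and assumes that it varied like the others, 187 bins were called (31.5%). Without ΔLEO1 10% serum replicate A 0 were called and 65 had an unadjusted p-value under 0.05. The calls of a difference between genotypes thus depended on which of these libraries was used.

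**Figure D4:**
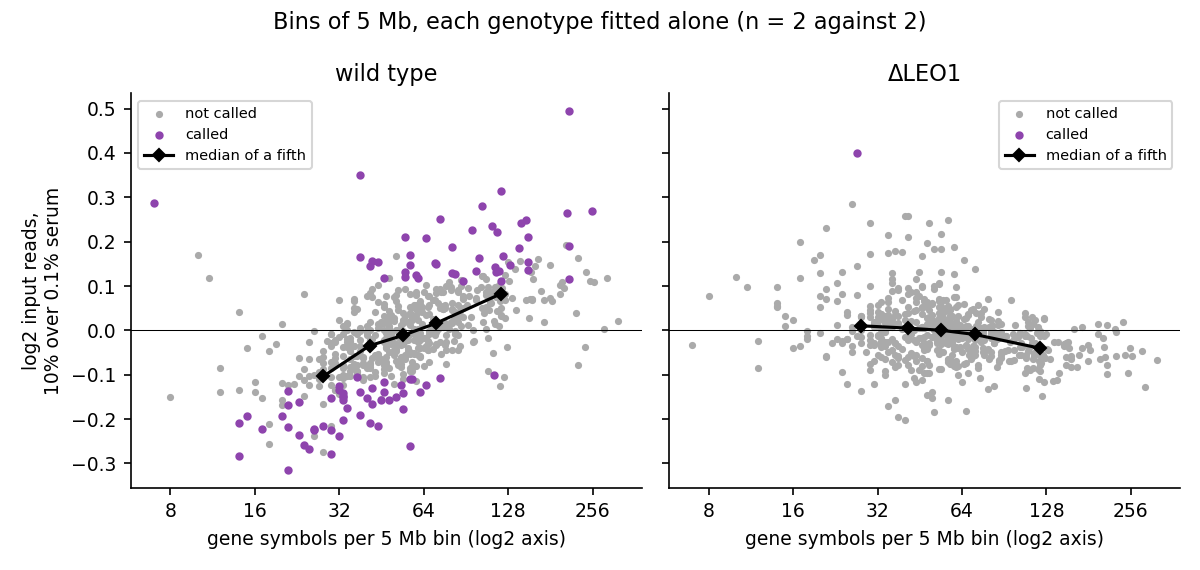
Each point is a 5 Mb bin, with its number of gene symbols on a log2 axis and its log2 fold change in input reads, 10% over 0.1% serum, for wild type (left) and ΔLEO1 (right) fitted alone with 2 samples a side. Called bins are purple, and the black line joins the medians of the 5 classes, which rise from -0.10 to 0.083 in wild type and fall from 0.010 to -0.040 in ΔLEO1.

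ΔLEO1 inputs lay below wild type on stretches of chromosomes 3, 4 and 5, picked earlier from these inputs. The stretch of chromosome 4 ran from 80000001 to 190000000. Its log2 coverage relative to wild type was -0.12 and -0.32 in 10% serum and -0.43 in both replicates in 0.1% serum, and the bin called in ΔLEO1 alone lies in it. On chromosome 5 from 1 to 20000000 it was -0.099 and -0.16 in 10% serum and -0.24 and -0.22 in 0.1% serum. On chromosome 3 from 40000001 to 60000000 the order was the opposite, with -0.30 and -0.32 in 10% serum and -0.21 and -0.23 in 0.1% serum. No test was made of these stretches, and with all 8 inputs 0 of their bins were called by edgeR.

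Summed over chromosomes, 0 of 24 were called (0%) with edgeR and with DESeq2, and before adjustment 0 and 1 had a p-value under 0.05. The mitochondrial chromosome had the largest fitted difference, 0.19 ± 0.19 (SE, edgeR adjusted p = 0.906), which was -0.0080 ± 0.11 without ΔLEO1 10% serum replicate A. Chromosomes 19, 22 and 17 had the most symbols per bin, with medians of 188, 109.5 and 103, and log2 fold changes of 0.033 ± 0.045, -0.0032 ± 0.055 and 0.031 ± 0.031 with 8 inputs. They were 0.083 ± 0.027, 0.056 ± 0.032 and 0.069 ± 0.017 with 7 inputs (edgeR adjusted p = 0.105, 0.306 and 0.0526). Chromosome 1, with a median of 77, had -0.0061 ± 0.0084 with 8 inputs and 0.0079 ± 0.0054 with 7. Chromosome 16, with a median of 72.5, had 0.040 ± 0.036 with 8 inputs and 0.081 ± 0.020 with 7 (edgeR adjusted p = 0.0526). Chromosomes 15 and 20, both with 70, had 0.0051 ± 0.0045 and 0.031 ± 0.026 with 7 inputs. Chromosome 6, with 49, had -0.013 ± 0.020 with 8 inputs and -0.027 ± 0.0062 with 7 (edgeR adjusted p = 0.0526). Chromosome 4, with a median of 41 symbols per bin, had 0.039 ± 0.049 and -0.00020 ± 0.030, and chromosome 18, with 39, had -0.0078 ± 0.028 and -0.025 ± 0.019.

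Of single TSS windows 0 of 206128 (0%) were called with 8 inputs by edgeR or by DESeq2, and before adjustment 14733 and 5925 had a p-value under 0.05. With 7 inputs, ΔLEO1 10% serum replicate A left out, 150 windows were called (0.0726%), 133 higher (0.0644%) and 17 lower (0.00823%) in 10% serum. They belonged to 52 genes on the higher side and 13 on the lower side, since windows of one gene overlap. The largest rises were at USF2, IRF2BP2, LIMD2, UBTF and MTCL1, with log2 fold changes from 1.24 to 1.37 with 7 inputs and from 1.16 to 1.38 with 8. USF2, IRF2BP2 and UBTF encode a helix-loop-helix transcription factor, a corepressor and a ribosomal RNA transcription factor. The largest falls were at LINC01435, the signal recognition particle RNA pseudogene RN7SL225P, ENSG00000225965, ENSG00000280317 and LINC02201, with log2 fold changes from -1.24 to -1.03 with 7 inputs and from -1.02 to -0.69 with 8.

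Of these 10 windows 5 hold the RefSeq promoter of their gene whole (GRCh38.p14, 250 bases before to 50 after the start). Promoters of 2 windows that rose and of the 1 that fell are shown because they differ in base composition. CG pairs, read the same on both strands, are in capitals. The USF2 promoter lies at chr19:35268712-35269011 (plus strand), that of IRF2BP2 at chr1:234610129-234610428 (minus strand) and that of LINC01435 at chr10:108069244-108069543 (minus strand).
USF2: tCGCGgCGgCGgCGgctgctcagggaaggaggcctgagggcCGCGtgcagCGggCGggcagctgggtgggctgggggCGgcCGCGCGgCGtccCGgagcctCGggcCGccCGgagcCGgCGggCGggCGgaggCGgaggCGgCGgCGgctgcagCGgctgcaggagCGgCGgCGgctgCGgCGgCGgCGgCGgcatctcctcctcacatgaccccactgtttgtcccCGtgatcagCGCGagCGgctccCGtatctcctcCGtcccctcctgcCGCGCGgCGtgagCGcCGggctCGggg
IRF2BP2: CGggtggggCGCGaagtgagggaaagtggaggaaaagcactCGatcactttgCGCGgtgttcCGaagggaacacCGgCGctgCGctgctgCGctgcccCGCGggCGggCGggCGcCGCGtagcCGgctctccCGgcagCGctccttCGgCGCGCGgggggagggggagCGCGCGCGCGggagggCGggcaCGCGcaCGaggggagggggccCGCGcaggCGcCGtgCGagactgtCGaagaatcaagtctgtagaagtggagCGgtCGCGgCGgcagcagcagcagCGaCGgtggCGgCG
LINC01435: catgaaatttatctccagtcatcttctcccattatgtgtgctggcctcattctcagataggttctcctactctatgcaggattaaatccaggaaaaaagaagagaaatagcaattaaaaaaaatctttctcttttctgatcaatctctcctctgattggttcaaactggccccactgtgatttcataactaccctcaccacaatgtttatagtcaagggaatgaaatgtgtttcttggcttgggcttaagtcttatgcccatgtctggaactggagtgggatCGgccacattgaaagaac
The GC content was 80.3%, 74.3% and 40.3%, with 48, 48 and 1 CG pairs. The other promoters held whole, those of LIMD2 and MTCL1, had 81.7% and 83.0% GC. Over 27305 RefSeq promoters the median was 58.3% GC and 14 CG pairs, and 95.8% held at least 1 CG. A match of letters is a description only.

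At the window of USF2 (chromosome 19, 35268065 to 35270065) wild type had 17 and 43 reads in 10% serum and 11 and 11 in 0.1% serum, and ΔLEO1 had 11 and 27 against 4 and 12 reads. In CPM the 4 libraries in 10% serum, at 3.24 to 5.42, lay above the 4 in 0.1% serum, at 0.869 to 1.85. Their log2 fold change was 1.37 ± 0.28 (SE, edgeR adjusted p = 0.0185) with 7 inputs and 1.38 ± 0.28 (adjusted p = 0.201) with 8. At the window of IRF2BP2 (chromosome 1, 234608525 to 234610525) wild type had 41 and 41 reads against 13 and 6, and ΔLEO1 had 9 and 29 against 10 and 21. All 4 libraries in 10% serum were again higher in CPM, and the log2 fold change was 1.37 ± 0.26 with 7 inputs and 1.29 ± 0.27 with 8. Of all 206128 windows tested, 1.91% had all 4 libraries in 10% serum above all 4 in 0.1% serum. At the window of LINC01435 (chromosome 10, 108068307 to 108070307) wild type had 22 and 24 reads in 10% serum and 42 and 43 in 0.1% serum, while ΔLEO1 had 15 and 10 against 30 and 33, and in CPM the groups overlapped at ΔLEO1 10% serum replicate A, with fold changes of -1.24 ± 0.23 and -1.02 ± 0.24.

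When windows were summed per gene, 0 of 57229 genes (0%) were called with 8 inputs, and 3421 had an unadjusted p-value under 0.05 (edgeR). DESeq2 called 5 genes (0.00874%), all higher in 10% serum: RNF138 (a ubiquitin ligase), CISD2 (an iron-sulphur protein of the endoplasmic reticulum), NOXA1 (an activator of NADPH oxidase), KLF3 (a zinc finger repressor) and CHRNA7 (a nicotinic acetylcholine receptor subunit). They were singled out after their values were seen. With the same 7 inputs edgeR called 22 genes (0.0383%), all higher in 10% serum, with log2 fold changes from 0.61 to 2.39. All 5 genes called by DESeq2 were among the 22. Of the 22 genes 13 lay in class 5 bins, which held 91486 of the 217509 distinct windows on chromosomes 1 to 22 and X. In wild type alone 68 genes were called (0.119%), 64 higher and 4 lower (0.00701%), and in ΔLEO1 alone 0 of 57097, of which 1681 had a p-value under 0.05 before adjustment.

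The 5 largest rises were at CNOT3, NPTXR, CHRNA7, KLF3 and HNRNPAB. NPTXR, a neuronal pentraxin receptor with 1 window (chromosome 22, 38843028 to 38845028), had 5.03 and 5.10 CPM in wild type 10% serum and 1.75 and 1.65 CPM in 0.1% serum, and 4.21 and 4.71 against 2.37 and 2.45 CPM in ΔLEO1. The sera did not overlap in either genotype, with a log2 fold change of 1.27 ± 0.24 (SE, edgeR adjusted p = 0.0379) with 7 inputs and 1.23 ± 0.23 (adjusted p = 0.225) with 8. Genes without overlap of the sera made up 1.83% of all tested in this direction. KLF3, on chromosome 4, had 20.3 and 14.0 against 5.90 and 10.6 CPM in wild type and 15.4 and 15.5 against 6.88 and 7.90 CPM in ΔLEO1, again without overlap, and its log2 fold change was 1.04 ± 0.19 with 7 inputs and 1.05 ± 0.20 with 8.

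HNRNPAB, which encodes an RNA-binding protein and lies on chromosome 5, had 46.3 and 47.6 CPM in wild type 10% serum against 16.4 and 21.5 CPM in 0.1% serum. In ΔLEO1 it had 15.4 and 44.6 CPM in 10% serum against 29.7 and 27.8 CPM in 0.1% serum, so that replicate A in 10% serum was the lowest of the 8. The log2 fold change was 1.03 ± 0.15 (SE) with 7 inputs and 0.73 ± 0.28 with 8. CHRNA7 had 1.26 ± 0.22 and 1.21 ± 0.23, and its values are uncertain because a partial copy of the gene can share its reads. CNOT3, a subunit of the CCR4-NOT deadenylase, had at most 30 reads in a library and 0 in ΔLEO1 0.1% serum replicate A, with fitted fold changes of 2.39 ± 0.41 and 2.16 ± 0.49, and 40 of its 51 windows lie on alternative contigs that had no reads. When only windows of a gene that do not overlap were summed, the 7-library fit called 82 genes (0.143%), 71 higher and 11 lower, and 8 of the 21 of these genes that were tested there stayed called, NPTXR, KLF3 and HNRNPAB among them but not CHRNA7. With 8 inputs such sums gave 1 called gene (0.00175%), lower in 10% serum.

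**Figure D5:**
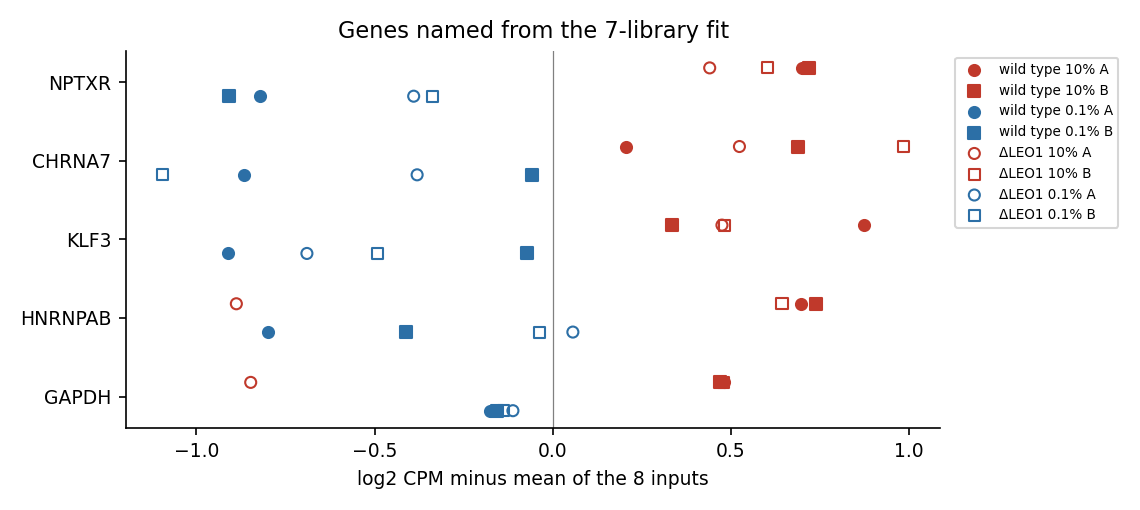
For NPTXR, CHRNA7, KLF3, HNRNPAB and GAPDH the log2 CPM of each library is plotted as its difference from the mean of the 8 inputs, with 10% serum in red above 0.1% serum in blue and ΔLEO1 as open symbols. The sera do not overlap at NPTXR, CHRNA7 and KLF3, and at HNRNPAB and GAPDH ΔLEO1 10% serum replicate A is the lowest library.

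In the gene lists 0 members were called with 8 inputs (edgeR). Over all genes tested the median log2 fold change was -0.0037 with 8 inputs, -0.013 with 7, -0.010 in wild type and 0.00075 in ΔLEO1. Among 27 genes of the cell cycle and DNA replication, 4 had a positive and 0 a negative fold change with a p-value under 0.05 before adjustment, against 1966 and 1455 of all 57229 genes. Their median was 0.11 with 8 inputs, 0.13 with 7, 0.25 in wild type and 0.00023 in ΔLEO1. RCC1, the chromatin-bound exchange factor for Ran and the member with the most reads, had 71.5 to 86.1 CPM in 10% serum and 72.1 to 84.5 CPM in 0.1% serum, which overlap.

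The 8 genes at mapped replication origins had a median of -0.032 with 8 inputs, 0.073 in wild type and -0.078 in ΔLEO1. DNMT1, the maintenance DNA methyltransferase near one such origin, had 183 to 214 CPM in 10% serum and 191 to 207 CPM in 0.1% serum. The 20 genes at common fragile sites, which replicate late, had a median of -0.012 with 8 inputs and -0.064 with 7. It was -0.040 in wild type and 0.0088 in ΔLEO1. MAGI2, a scaffold protein gene with the most reads among them, had 181 to 210 CPM against 178 to 222 CPM. In both genes the sera overlapped.

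Among 20 housekeeping genes the median was 0.17 with 8 inputs, 0.20 with 7, 0.28 in wild type and 0.10 in ΔLEO1. GAPDH, a glycolytic enzyme, was called with 7 inputs and had 92.4 and 91.7 CPM in wild type 10% serum against 58.7 and 59.4 CPM in 0.1% serum. In ΔLEO1 it had 36.8 and 92.3 against 61.3 and 60.2 CPM, and the 36.8 CPM of replicate A was the lowest of the 8. Its log2 fold change was 0.62 ± 0.12 (SE, edgeR adjusted p = 0.0379) with 7 inputs and 0.39 ± 0.19 (adjusted p = 0.834) with 8. With only windows that do not overlap it was 0.46 ± 0.13 with 7 inputs (adjusted p = 0.0830). GAPDH has many processed pseudogenes that can share reads.

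Of the families chosen by name, 85 cytosolic ribosomal protein genes had a median of 0.066 with 8 inputs and 0.10 in wild type, and 467 zinc finger genes had 0.057 and 0.11. Among the zinc finger genes 18 (3.85%) had all 4 libraries in 10% serum above all 4 in 0.1% serum and 4 (0.857%) below, against 1.83% and 1.71% of all genes. The 350 olfactory receptor genes, which lie in large clusters, had a median of -0.12 with 8 inputs and -0.23 in wild type. In this family 4 members (1.14%) were above and 15 (4.29%) below without overlap. The 63 keratin-associated protein genes and the 54 clustered protocadherin genes had medians of -0.014 and -0.019 with 8 inputs, and -0.13 and -0.11 in wild type. In ΔLEO1 these 2 medians were 0.10 and 0.060, opposite in sign to wild type. The ΔLEO1 medians were 0.029 for ribosomal protein genes, 0.0040 for zinc finger genes and -0.047 for olfactory receptor genes. Members of each family lie side by side and share bins, and near-identical members can share reads, so they are no independent measurements.

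The 20 fibroblast matrix genes had a median of 0.052 with 8 inputs, and COL6A3, a chain of type VI collagen, had 94.1 to 116 CPM in 10% serum and 97.4 to 106 CPM in 0.1% serum. The 9 tested nuclear genes for the upkeep of mitochondrial DNA had a median of 0.0013, and TK2, the mitochondrial thymidine kinase, had a log2 fold change of 0.14 ± 0.11 (SE). The 15 mitochondrial genes had a median of 0.22 with 8 inputs and 0.022 with 7, and 0.064 in wild type and 0.38 in ΔLEO1.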

How the data were processed

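The 8 input libraries were grouped by serum, with genotype as covariate, from the labels. The authors deposited raw read counts per TSS window and per peak region, with no input subtraction; the submitters' processing notes name bcl2fastq 2.20.0.422, STAR 2.7.10a, HOMER and the builds hg38 and dm6, and treatment of duplicate reads is not given in the sources used here. Windows with the same coordinates were counted once. Counts were summed per 5 Mb bin with at least 20 windows, chromosome, gene and window, and fitted with edgeR 4.0.16 in R 4.3.3 (TMM, filterByExpr with a minimum count of 10, quasi-likelihood test, Benjamini-Hochberg threshold 0.05). DESeq2 1.42.0, other bin sizes, peak regions in place of TSS windows, a promoter GC correction and genotypes alone were alternatives. So were windows that do not overlap, leaving out each library and a replicate block. Single values were compared by two-sided exact permutation tests that did not use genotype. They had 70 assignments with 8 inputs, 35 with 1 library left out and 6 in 1 genotype. Permuted within genotype (36 assignments), p was 0.500 for gene-rich over gene-poor coverage, 0.611 for its slope and 0.611 for the mitochondrial share. Intervals are 95% Wilson intervals over windows that do not overlap and cover counting error only. Library totals of 2844483 to 7947289 window reads set the precision.

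The gene density classes, lists and groups were chosen with earlier results of these data known. Features were named when called with groups that did not overlap, the 5 largest rises and 5 largest falls (for genes and windows also a minimum of reads); since the fit of 8 inputs called none, the rule was applied, after seeing the data, to the fit without ΔLEO1 10% serum replicate A. From each list the member with the most reads and any called member were named, except for 1 member that is not reported here. Replicate letters were used in the comparisons of pairs and in the replicate block, and the other fits and tests ignored them. Deviations of same-lettered libraries from their group means correlated in all 6 pairs of groups (r = 0.19 to 0.59). These values were not corrected for depth or GC content, and the labels do not say what a letter shares. They therefore do not show that a letter pairs samples. The scripts were tested on simulated counts with known changes.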

Additional observations from a re-analysis of the deposited data

Results flagged for a closer look

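In groups of 4 libraries of one serum, 5 values lay far from the other 3 by Dixon's test of 58 groups examined. Chance alone flags about 1 in 20 groups, a rate that does not hold here, since the features were chosen from calls made without ΔLEO1 10% serum replicate A. That library was the one apart in 4 of them, which follows in part from this choice. HNRNPAB had 15.4 CPM there against 44.6 to 47.6 CPM in the other libraries. The UBTF window had 2.53 CPM against 4.54 to 4.79 CPM, the ENSG00000280317 window 6.88 CPM against 2.40 to 2.67 CPM, and the LINC02201 window 5.79 CPM against 2.77 to 3.24 CPM. In 0.1% serum ΔLEO1 replicate B had 4667 CPM in the bin on chromosome 9 from 125000001, against 4316 to 4336 CPM in the others. The causes were not tested.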

How the results depend on the processing

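The counts of calls depended on which libraries were fitted, and the causes were not tested. Against 0 bins with 8 inputs, DESeq2 called 2, wild type alone 97, ΔLEO1 alone 1 and the GC-corrected fit without ΔLEO1 10% serum replicate A 15; leaving out 1 library gave 0 to 17 bins, 0 to 22 genes and 0 to 150 windows, above 0 only without that library. Against 0 genes, DESeq2 called 5, wild type alone 68 and windows that do not overlap 1 with 8 inputs and 82 with 7. The genotype interaction had 55 calls with the replicate block and 0 to 187 when 1 library was left out, 187 without ΔLEO1 10% serum replicate B. The replicate block changed no other call. Gene-rich over gene-poor coverage ran from 0.027 to 0.13, its slope from 0.0063 to 0.047 and the log2 mitochondrial share from -0.038 to 0.29 when 1 library was left out; in ΔLEO1 alone the first 2 turned to -0.060 and -0.027, and in wild type alone the share turned to -0.0064. Of 14 named features tested in ΔLEO1 alone 5 turned sign, all bins: those on chromosomes 14 (-0.099), 9 from 135000001 (-0.091), 17 (-0.0070) and 16 (-0.039), and that on chromosome 1 from 190000001 (0.0077). The median count of a tested window was 28 and of a tested gene 34, which limits what single windows and genes can show.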
